A study of Mus musculus with 6 samples.

Results

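Setd3, Ccnk, Ccdc85c, Eml1, Evl, Degs2, Yy1 and Wars are the 8 protein-coding genes followed here, all neighbours of Bcl11b on mouse chromosome 12. They were chosen by symbol for their place beside Bcl11b and are 8 of the 28048 genes that the count matrices list. The comparison asks whether RNA of these neighbours differed between progenitors with and without the distal timing enhancer (TE) of Bcl11b, and how far along the chromosome any difference lay. Whether a difference came from the enhancer itself, from the change in Bcl11b or from other cells in the culture was not tested.

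RNA was counted in single cells by sci-RNA-seq3, a method that marks fixed cells or nuclei with combined barcodes over several plates and gives each captured RNA molecule a unique molecular identifier (UMI). All mice were C57BL/6 and carried a YFP reporter in both Bcl11b alleles, and bone marrow was taken at 2 to 4 months of age from male and female mice, 6 to 8 of which were pooled. WT mice were Bcl11b YFP/YFP, and ΔTE mice were Bcl11b YFPΔEnh/YFPΔEnh, with the reporter kept and the enhancer deleted on both alleles. Progenitors were grown from bone marrow in vitro on OP9-DL1 stroma, a mouse feeder line that presents a Notch ligand. They were sorted as DN1 (CD44+CD25-), DN2a (CD44+CD25+Bcl11b-) or DN2b (CD44+CD25+Bcl11b+). The sorted cells were grown again on this stroma for 4 days with Flt3-L, IL-7, IL-2, SCF and IL-15. Each combination of genotype and starting population was 1 library, so the 6 groups were WT DN1, WT DN2a, WT DN2b, ΔTE DN1, ΔTE DN2a and ΔTE DN2b, each without a replicate. No difference between groups was tested. Reverse transcription used 3 wells per library. Wells share a culture and so give the technical spread within a library only.

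The filters on cells left between 3401 and 19489 cells per library, 60671 in all, with a median of 386 to 485 UMIs per cell. The labels call the starting cells T cell progenitors. All 12 T cell markers had UMIs in every library and summed to between 683 and 2715.8 CPM (counts scaled to the same total in every library), while 12 collagens and other stromal genes summed to between 271 and 2134.9 CPM, so feeder markers were in every library too, with Lum at 0 in WT DN2b, ΔTE DN1 and ΔTE DN2b. The WT DN2a library stood apart, since the limit on mitochondrial UMIs removed 2.59% of its cells, compared with 26.8% to 56.6% elsewhere. In sums over cells, fewer cells of a type and less RNA per cell cannot be told apart.

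Enhancers are stretches of DNA that raise transcription of genes which may lie far away, by contact in the folded chromosome, and one enhancer may reach several promoters in the same domain. Bcl11b encodes a zinc-finger factor needed for commitment to the T cell lineage. Its timing enhancer is known to lie far downstream of the gene, on the side away from the 8 genes described here, and to act on the moment at which each copy of Bcl11b switches on. The 8 neighbours have general roles in the cell. Setd3 methylates a histidine of actin, Ccnk is the cyclin of the transcription kinases Cdk12 and Cdk13, Yy1 is a zinc-finger factor that binds enhancers and promoters and takes part in looping between them, and Wars charges tryptophan onto its tRNA. Evl is an actin regulator of the Ena/VASP family, Eml1 binds microtubules, Ccdc85c is a coiled-coil protein of cell junctions, and Degs2 is an enzyme of sphingolipid synthesis.

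All 8 genes lay on one side of Bcl11b. In GRCm38, Bcl11b (ENSMUSG00000048251) spans chr12:107910403-108003602 on the minus strand, and its start site faces the 8 genes. Setd3 (ENSMUSG00000056770, chr12:108106431-108179314, minus strand) is the nearest, with a gap of 102.8 kb. Ccnk (ENSMUSG00000021258, chr12:108179579-108203359, plus strand) and Ccdc85c (ENSMUSG00000084883, chr12:108203602-108275425, minus strand) follow at once. Setd3 and Ccnk point away from each other with 264 bp between them, and the ends of Ccnk and Ccdc85c meet with 242 bp between them. Further out are Eml1 (ENSMUSG00000058070, chr12:108370957-108539617, plus strand) and Evl (ENSMUSG00000021262, chr12:108554720-108688516, plus strand). Degs2 (ENSMUSG00000021263, chr12:108678711-108702315, minus strand) overlaps the end of Evl by 9806 bp on the other strand. Yy1 (ENSMUSG00000021264, chr12:108792973-108820148, plus strand) and Wars (ENSMUSG00000021266, chr12:108860030-108894174, minus strand) are the farthest, with Wars 856.4 kb from Bcl11b. The sources used here do not say whether counting used strand, so UMIs of Evl and Degs2 in the overlap may have been exchanged. On the enhancer side, the nearest listed gene is 1689.2 kb from Bcl11b.

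**Figure D1:**
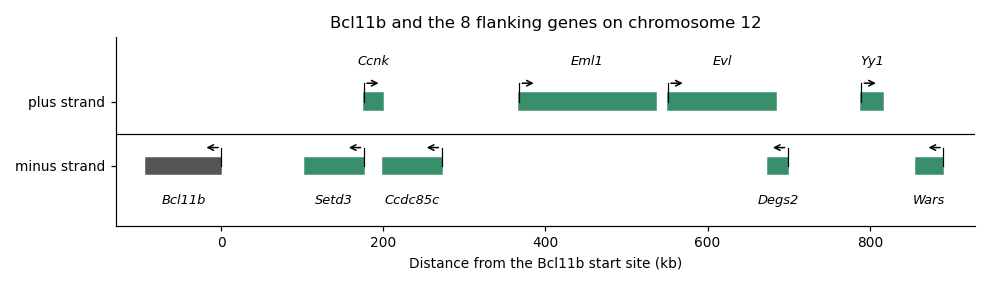
Bcl11b (grey) and the 8 neighbours (green) drawn to scale, with the distance from the Bcl11b start site in kb on the horizontal axis and the strand on the vertical axis. Arrows mark start sites and directions, and the start sites of Setd3 and Ccnk lie 175.7 and 176 kb from that of Bcl11b.

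The stretch between Setd3 and Ccnk is shown because Setd3 and Ccnk share it as upstream sequence, and the 2 are compared below as nearest neighbours of Bcl11b. It is given from the plus strand of GRCm38, from RefSeq, at chr12:108179315-108179578. Capitals mark GCCAT, the reverse complement of ATGGC, a short form of the motif of YY1, which Yy1 encodes.

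Setd3 to Ccnk: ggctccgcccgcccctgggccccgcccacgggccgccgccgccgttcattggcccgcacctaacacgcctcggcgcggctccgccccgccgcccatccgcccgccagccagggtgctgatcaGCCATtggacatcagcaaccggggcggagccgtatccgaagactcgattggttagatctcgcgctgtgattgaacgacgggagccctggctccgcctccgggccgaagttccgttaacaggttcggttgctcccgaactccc

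These 264 bases were 70.1% G or C and held 1 such match. Windows of 250 bases before the RefSeq start were on hand for 7 of the 8 genes and were searched for ATGGC on both strands. Of these, only the window of Setd3 held it, and the windows of Bcl11b and of Ccnk, whose RefSeq start is further along, did not. Of the promoters of all 27025 RefSeq genes, 32.9% held the same letters. CTTTGA, a short form of the motif of TCF factors, was in the window of Bcl11b, in 0 of the 7 neighbours and in 14% of all promoters. A match describes letters only.

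Bcl11b itself was lower in the ΔTE library than in the WT library of every start. In WT it was at 235 CPM (95% interval 223 to 247) from the DN1 start, 535 CPM (520–550) from DN2a and 856 CPM (822–892) from DN2b, and in ΔTE at 89.4 CPM (81.9–97.4), 256 CPM (244–269) and 540 CPM (505–576). All intervals here cover counting error only and are exact Poisson intervals for levels and exact binomial intervals for ratios. The log2 ratios of ΔTE to WT were −1.39, −1.06 and −0.67, and the 3 ΔTE wells lay below the 3 WT wells in each start.

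The neighbours together lay near the median gene. The median log2 ratio of the 8 genes was −0.05 from the DN1 start, −0.21 from DN2a and 0.09 from DN2b, beside medians of 0.001, −0.140 and −0.012 over all genes with at least 100 UMIs in the 2 libraries compared. All 8 genes are counted in the medians of the neighbours, although Eml1 never reached 100 UMIs in a comparison and Degs2 did so only from the DN2a start. Among the neighbours with at least 100 UMIs the medians were 0.07, −0.11 and 0.09. Of the genes past that minimum, 2 of 6 neighbours passed 1.2-fold in either direction from the DN1 start (Ccdc85c and Evl), where 17.0% of all genes did. From the DN2a start 3 of 7 passed (Setd3, Ccnk and Degs2), where 31.0% of all genes did. With median-centred scaling 2 of 7 passed from DN2a, beside 24.1% of all genes. Relative to the median gene there, Setd3 and Ccnk were at −0.17 and −0.18, inside 1.2-fold (0.26 in log2). Ccdc85c and Degs2 were beyond it, at 0.34 and −0.49. From the DN2b start 2 of 6 passed (Setd3 and Evl), where 31.9% of all genes did. The 3 wells of one genotype all lay above the 3 of the other for 2 of 6 neighbours from DN1, 4 of 7 from DN2a and 1 of 6 from DN2b, beside 17.2%, 20.1% and 17.9% of all genes. One neighbour, Setd3, was below WT in all 3 starts among the 6 that could be counted in each of them, and 28.1% of all genes were. Ccdc85c and Wars were above WT in all 3 starts, as were 10.2% of all genes, though with UMIs scaled per cell Wars was at −0.11 from DN2b.

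**Figure D2:**
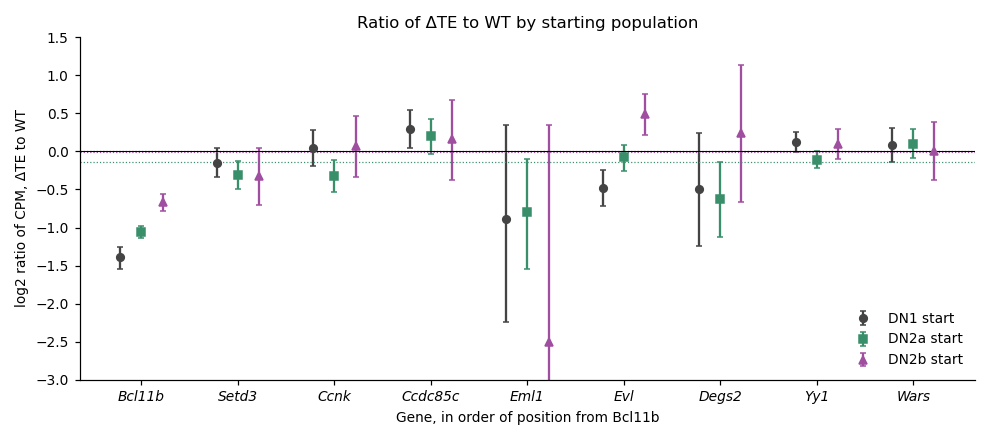
The log2 ratio of CPM, ΔTE to WT, for Bcl11b and the 8 neighbours in order of position, by starting population, with 95% counting intervals and dotted lines at the median of all genes. Bcl11b lies at −1.39, −1.06 and −0.67, Evl runs from −0.48 to 0.49 over the starts, and the DN2b interval of Eml1 goes past the lower edge to −7.95.

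Setd3, the nearest neighbour, was the lower one in ΔTE in all 3 starts, at ratios closer to 0 than those of Bcl11b. In WT it was at 76.6 CPM (69.8–84) from the DN1 start, 75.2 CPM (69.7–81.1) from DN2a and 68.5 CPM (59–79) from DN2b. In ΔTE it was at 69.2 CPM (62.7–76.3), 60.6 CPM (54.7–67) and 54.8 CPM (44.3–67). The ΔTE value was the lower one in each start, but well ranges were apart only from the DN2a start, with WT wells at 71.4, 73.4 and 81.9 CPM and ΔTE wells at 49.3, 62.1 and 66.8 CPM. These levels gave log2 ratios of −0.15 (−0.34, 0.05), −0.31 (−0.50, −0.13) and −0.32 (−0.70, 0.04). Relative to the median gene of each comparison they were −0.15, −0.17 and −0.31, and 19.6% of all genes were below the median gene in all 3 starts. The ratio of Setd3 was negative under each of the 21 alternatives from the DN1 start and each of the 20 from DN2a and from DN2b, with single wells left out among them. It ranged from −1.01 to −0.05, from −0.45 to −0.08 and from −0.84 to −0.14. All alternatives here reuse the same library of each genotype and start, so they are not separate observations. In the order of the 6 libraries by level, 0 of 5 steps had intervals apart.

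Ccnk, which starts 264 bp from Setd3, was below WT from 1 of the 3 starts (from 2 with UMIs scaled per cell, where DN2b was at −0.05), and its intervals met those of Setd3 in each. Its levels in WT were 49.1 CPM (43.6–55) from the DN1 start, 57.4 CPM (52.6–62.6) from DN2a and 49.8 CPM (41.8–58.9) from DN2b, and in ΔTE 50.7 CPM (45.1–56.8), 46.1 CPM (40.9–51.7) and 52.4 CPM (42.2–64.5). The ΔTE library was the lower one from DN2a alone, with 3 ΔTE wells between 42.1 and 55.9 CPM and 3 WT wells between 56 and 59.4 CPM. On the log2 scale ΔTE to WT came to 0.05 (−0.19, 0.28), −0.32 (−0.53, −0.11) and 0.07 (−0.33, 0.47). Relative to the median gene the DN2a value was −0.18. When UMIs were scaled per cell and not to the library total, it was −0.09. The kinases that Ccnk activates had log2 ratios of 0.03, −0.13 and −0.13 (Cdk12) and −0.11, −0.24 and −0.04 (Cdk13) in the order DN1, DN2a and DN2b.

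Ccdc85c, whose end meets that of Ccnk, was the higher one in ΔTE in all 3 starts. It was at 41.9 CPM (36.9–47.4), 38.9 CPM (35–43.2) and 28.2 CPM (22.3–35.2) in WT from the DN1, DN2a and DN2b starts, and at 51.4 CPM (45.8–57.5), 44.6 CPM (39.6–50.2) and 31.5 CPM (23.6–41.1) in ΔTE. The log2 ratios were 0.29 (0.05, 0.54), 0.20 (−0.03, 0.43) and 0.16 (−0.37, 0.68). Only from the DN1 start did the interval leave out 0 and the wells lie apart, at 48.2 to 54.5 CPM in ΔTE and 35.1 to 47.7 CPM in WT. These ratios were higher than those of 93.4%, 93.6% and 75% of all genes. With a limit of 20% mitochondrial UMIs the DN1 ratio was 0.03 (−0.39, 0.46). Ccdc85c was above WT under 20 of 21 alternatives from DN1, 21 of 21 from DN2a and 16 of 20 from DN2b. Within each genotype Ccdc85c was lower from the DN2b start than from the DN1 start, with log2 ratios of DN2b to DN1 of −0.57 (−0.96, −0.20) in WT and −0.71 (−1.15, −0.29) in ΔTE. The 3 nearest neighbours, which all start within 271.8 kb of the start of Bcl11b, thus included 1 below and 1 above WT in all 3 starts.

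**Figure D3:**
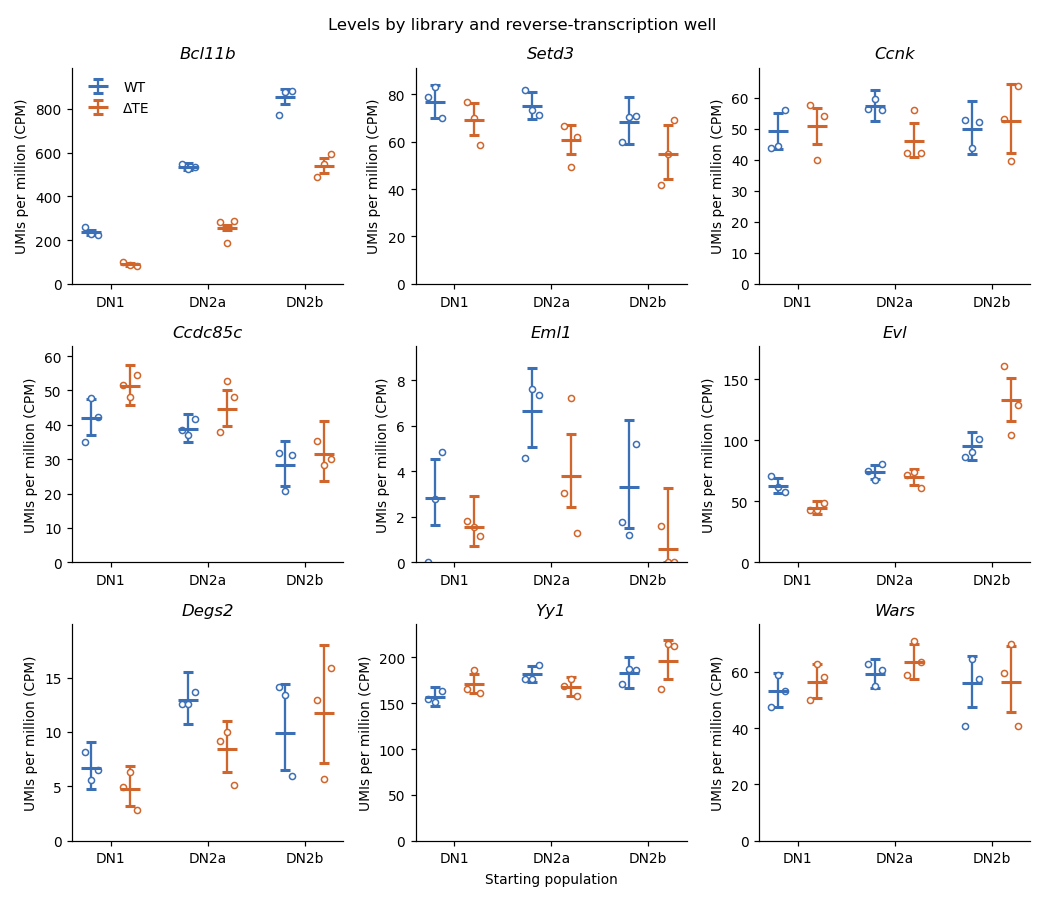
Level in CPM of Bcl11b and the 8 neighbours in the 6 libraries, by starting population, with WT in blue and ΔTE in orange. Bars mark the library with its 95% counting interval and open circles its 3 wells, and for Bcl11b the circles of the 2 genotypes do not meet in any start.

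Evl differed between genotypes in opposite directions at the ends of the series. In WT it was at 62.6 CPM (56.4–69.3) from the DN1 start, 73.7 CPM (68.2–79.5) from DN2a and 94.9 CPM (83.7–107) from DN2b. In ΔTE it was at 44.8 CPM (39.5–50.5), 69.5 CPM (63.2–76.3) and 133 CPM (116–151). From the DN1 start the ΔTE wells, at 43, 43.1 and 48.9 CPM, were all below the WT wells, at 57.7, 61.6 and 70.7 CPM. From the DN2b start the order was the opposite, with ΔTE wells at 104, 129 and 161 CPM and WT wells at 86.4, 90 and 101 CPM, and from DN2a the wells overlapped. The log2 ratios of ΔTE to WT were −0.48 (−0.72, −0.25), −0.08 (−0.26, 0.09) and 0.49 (0.22, 0.75), which put Evl above 2.32%, 62.6% and 95.6% of all genes. From DN2a the ratio was 0.06 relative to the median gene and above 0 under all 4 other scalings. The change of direction between starts was not tested, since each rests on 1 library per genotype.

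The level of Evl was graded over the starts. It was lowest from DN1 and highest from DN2b in both genotypes, as was that of Bcl11b. The log2 ratio of DN2b to DN1 was 0.60 (0.37, 0.83) in WT and 1.57 (1.31, 1.83) in ΔTE, beside medians of −0.05 and −0.07 over all genes. In the order of the 6 libraries, ΔTE DN1 was lowest and ΔTE DN2b highest, and 3 of the 5 steps had intervals that did not meet. For the other 7 neighbours 0 of 5 steps did. Over the 6 libraries the genes whose log2 CPM was most like that of Evl, of 3678 with at least 100 UMIs in each library, were Cd27 (Pearson r = 0.994), a costimulatory receptor of T and NK lineage cells, and Herpud1 (r = 0.983), a protein of the endoplasmic reticulum stress response. For Bcl11b the same r was 0.83. These values describe 6 points that share 2 genotypes and 3 starts.

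ILC and NK markers were higher in ΔTE in all 3 starts, the same direction as Evl from DN2b and the opposite one from DN1. Cells with a UMI of Il2rb, Icos, Klrd1, Klrb1c, Ncr1, Il18r1, Tbx21 or Eomes made up 2.82% of the WT and 9.26% of the ΔTE cells from the DN2b start, 1.03% and 2.67% from the DN2a start, and 0.659% and 0.894% from the DN1 start. The full list of 15 ILC and NK genes summed to 1508.2 CPM in WT DN2b and 2653.9 CPM in ΔTE DN2b, with 15 and 14 of the genes detected and Il1rl1 at 0 in the latter, and to 1718.2 and 2452.7 CPM from DN2a and 1291.6 and 1688.9 CPM from DN1. Klrb1c and Eomes were at 0 in both DN1 libraries and Il2rb in that of WT. In cells with one of those 8 markers, the level of Evl over all starts was 160 CPM (114–220) for WT and 194 CPM (154–241) for ΔTE. These sums mix the starts, since DN2b gave 314 of the 705 ΔTE marker cells but 139 of the 406 WT ones. From the DN1 start the log2 ratio of Evl in marker cells was −0.69 (−2.69, 1.18), with 7 WT and 5 ΔTE UMIs. It was 0.01 (−0.97, 1.04) from DN2a and 0.49 (−0.35, 1.40) from DN2b. The higher ΔTE level was thus not seen in every start, and all 3 intervals held 0. In cells of no marker group the level of Evl over all starts was 70.4 CPM (66.1–74.8) for WT and 60.4 CPM (56–65) for ΔTE. Those cells are below the limits set for T, myeloid and stromal UMIs and hold none of the 8 markers. They may still hold UMIs of the other ILC and NK genes. From the DN2b start, the ILC or NK marker cells held 50 of 228 Evl UMIs in ΔTE and 16 of 259 in WT. Without them the DN2b ratio was 0.34 (0.05, 0.62), and the DN1 ratio was −0.48 (−0.72, −0.25), as with them. In the cells of no marker group the DN2b ratio was 0.33 (0.01, 0.64) and the DN1 ratio −0.49 (−0.75, −0.23). In cells with at least 2 myeloid marker UMIs the level of Evl was 153 CPM (114–202) for WT and 105 CPM (71.5–149) for ΔTE. Such cells were 4.18% of WT and 3.35% of ΔTE cells from the DN1 start, and the part of these cells in the DN1 ratio was not tested on its own.

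The narrowest choice of cells gave another DN2b value. In cells without a single UMI of the T, ILC or NK, myeloid or stroma lists, of which 16271 remained in all and as few as 612 in a library, the log2 ratio of Evl was −0.67 (−1.65, 0.22) from the DN2b start and −0.24 (−0.66, 0.18) from the DN1 start. Its relatives in the Ena/VASP family had log2 ratios of 0.23, 0.03 and 0.42 (Vasp) and −0.08, −0.49 and −0.25 (Enah) in the order DN1, DN2a and DN2b.

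Most UMIs of Eml1 lay in cells that carried stromal markers. It had 120 UMIs in all, 17, 60 and 9 in WT from the DN1, DN2a and DN2b starts and 9, 24 and 1 in ΔTE, which is 2.84, 6.64 and 3.3 CPM and 1.53, 3.8 and 0.583 CPM. Cells with at least 3 UMIs of the 12 stromal genes, which were 3038 of the 60671 cells and held 6.48% of all UMIs, held 101 of these 120, or 84.2% (exact interval 76.4% to 90.2%). For the other 7 neighbours that share was between 2.11% and 5.6%. In cells with 0, 1 to 2, 3 to 9 and 10 or more stromal UMIs, Eml1 was at 0.325 CPM (0.148–0.616), 5.26 CPM (2.52–9.67), 53.7 CPM (39.9–70.8) and 45.4 CPM (33.8–59.7). Close to the cut, 371 cells had 2 stromal UMIs and 266 had 3.

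Within those feeder-marked cells the difference in Eml1 between genotypes was inside counting error. It was at 50.6 CPM (39.7–63.6) there in WT and 45.8 CPM (30.4–66.2) in ΔTE, a log2 ratio of −0.14 (−0.83, 0.50). In whole libraries its log2 ratios were −0.89 (−2.24, 0.35), −0.80 (−1.55, −0.10) and −2.50 (−7.95, 0.35), the last from 9 and 1 UMIs. The share of feeder-marked cells was 2.14%, 9.04% and 3.18% in WT and 1.51%, 5.91% and 1.32% in ΔTE, in the same order of starts and with the same direction of difference. Outside the feeder-marked cells 13 UMIs remained in WT and 6 in ΔTE. Fewer feeder cells and less Eml1 per feeder cell cannot be told apart in the whole-library ratios.

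**Figure D4:**
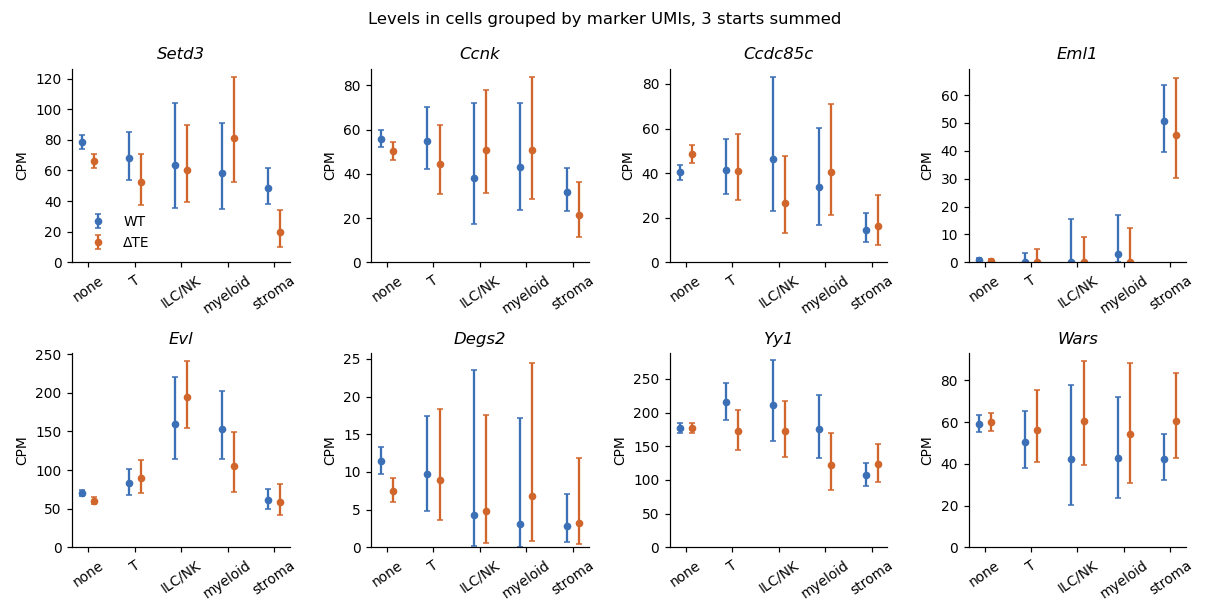
Level in CPM of the 8 neighbours, summed over the 3 starts, in cells grouped by marker UMIs, with WT in blue, ΔTE in orange and 95% counting intervals. The groups are none (cells of no marker group), T, ILC or NK, myeloid and stroma. Eml1 lies at 50.6 and 45.8 CPM in the stroma group and at or below 3.07 CPM in the others, and Evl is at 160 and 194 CPM in the ILC or NK group.

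Degs2 was the other low gene, with 285 UMIs in all. It was at 6.68 CPM (4.77–9.09), 12.9 CPM (10.7–15.5) and 9.89 CPM (6.52–14.4) in WT from the DN1, DN2a and DN2b starts, and at 4.75 CPM (3.16–6.87), 8.39 CPM (6.29–11) and 11.7 CPM (7.12–18) in ΔTE. From the DN2a start, where it had 117 and 53 UMIs, the ΔTE wells at 5.12 to 9.96 CPM lay below the WT wells at 12.6 to 13.7 CPM. These levels gave log2 ratios of −0.49 (−1.24, 0.24), −0.62 (−1.12, −0.14) and 0.24 (−0.67, 1.13). Evl and Degs2 overlap and may share UMIs, so their values are not separate observations. From DN2a, Degs2 was below WT under all 5 scalings and at −0.49 relative to the median gene, where Evl was at 0.06. Its relative Degs1 had ratios of −0.05, −0.16 and 0.25.

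Yy1, a factor with a proposed part in enhancer contacts, had ratios close to 0. It was at 157 CPM (147–168), 182 CPM (173–191) and 183 CPM (167–200) in WT from the DN1, DN2a and DN2b starts, and at 171 CPM (161–182), 168 CPM (158–179) and 196 CPM (176–219) in ΔTE. On the log2 scale ΔTE to WT came to 0.12 (−0.01, 0.25), −0.11 (−0.22, 0.00) and 0.10 (−0.10, 0.30). From the DN2a start the ΔTE wells at 158 to 177 CPM lay just below the WT wells at 177 to 192 CPM, but relative to the median gene the ratio was 0.03. Under the 4 other scalings it was between 0.01 and 0.12, so its direction from DN2a turned with the scaling. Ctcf, which also takes part in chromosome folding, had log2 ratios of 0.10 (−0.01, 0.21), −0.40 (−0.50, −0.31) and −0.19 (−0.36, −0.01). The genes most like Yy1 over the 6 libraries were Rasa1 (r = 0.993) and Khsrp (r = 0.988), and r with Bcl11b was 0.62. The other 6 neighbours had fewer than 100 UMIs in at least 1 library and were not ranked.

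Wars, the farthest of the 8, had overlapping intervals between genotypes in every start. In WT it was at 53.3 CPM (47.6–59.4), 59.2 CPM (54.3–64.4) and 56 CPM (47.5–65.7) from the DN1, DN2a and DN2b starts, and in ΔTE at 56.5 CPM (50.6–62.9), 63.5 CPM (57.4–70) and 56.5 CPM (45.8–69). The wells of the 2 genotypes overlapped in every start. The log2 ratios were 0.09 (−0.14, 0.31), 0.10 (−0.09, 0.29) and 0.01 (−0.37, 0.39), so that a difference beyond about 0.39 in either direction lay outside all 3 intervals. Other tRNA synthetases gave a frame for these values. Of 20 listed, Mars1 was not found under that symbol and is not used here, and the other 19 had at least 100 UMIs in each comparison, with median log2 ratios of 0.04, −0.09 and 0.06. Past 1.2-fold, 1 was above WT from DN1 (Qars, 0.33), 1 was below from DN2a (Eprs, −0.35), and 3 were above and 3 below from DN2b.

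In the wider neighbourhood, genes near Bcl11b had medians close to those of other chromosomes. The genes with at least 100 UMIs that start within 1 Mb of Bcl11b, the neighbours among them, numbered 8, 9 and 6 from the DN1, DN2a and DN2b starts and had median log2 ratios of 0.03, −0.11 and 0.09. From 1 to 3 Mb there were 13, 13 and 12 such genes, with medians of 0.07, −0.11 and 0.02. On other chromosomes the medians were 0.00, −0.14 and −0.01. On the enhancer side of Bcl11b, 6 genes within 3 Mb had medians of −0.03, −0.11 and 0.07, and 0 of 6, 0 of 6 and 1 of 6 passed 1.2-fold. On the side of the 8 neighbours, the other genes within 3 Mb had medians of 0.08, −0.11 and −0.07, and 1 of 9, 2 of 9 and 3 of 6 passed, from −0.52 (Cinp) to 0.46 (Tecpr2) in the DN2b comparison. The shares of all genes past 1.2-fold were those given above, 17.0%, 31.0% and 31.9%. Vrk1, a kinase gene on the enhancer side, had log2 ratios of −0.18 (−0.35, −0.01), −0.03 (−0.19, 0.12) and −0.01 (−0.31, 0.28). Of the genes of the window other than Bcl11b with at least 100 UMIs, the lowest ratio in any start was that of Degs2 from DN2a, −0.62. Below that minimum was Dlk1, a Delta-like protein gene 1449.2 kb away on the side of the neighbours, which was chosen after its values were seen. Dlk1 had 10, 23 and 1 UMIs in WT and 27, 39 and 12 in ΔTE from DN1, DN2a and DN2b. The ΔTE library was the higher one each time, with log2 ratios of 1.46 (0.36, 2.67), 1.28 (0.50, 2.09) and 4.26 (1.5, 9.67). Apart from Bcl11b, no other gene of the window, the 8 neighbours among them, had an interval without 0 in all 3 starts. The share of all genes with such intervals is not given here.

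**Figure D5:**
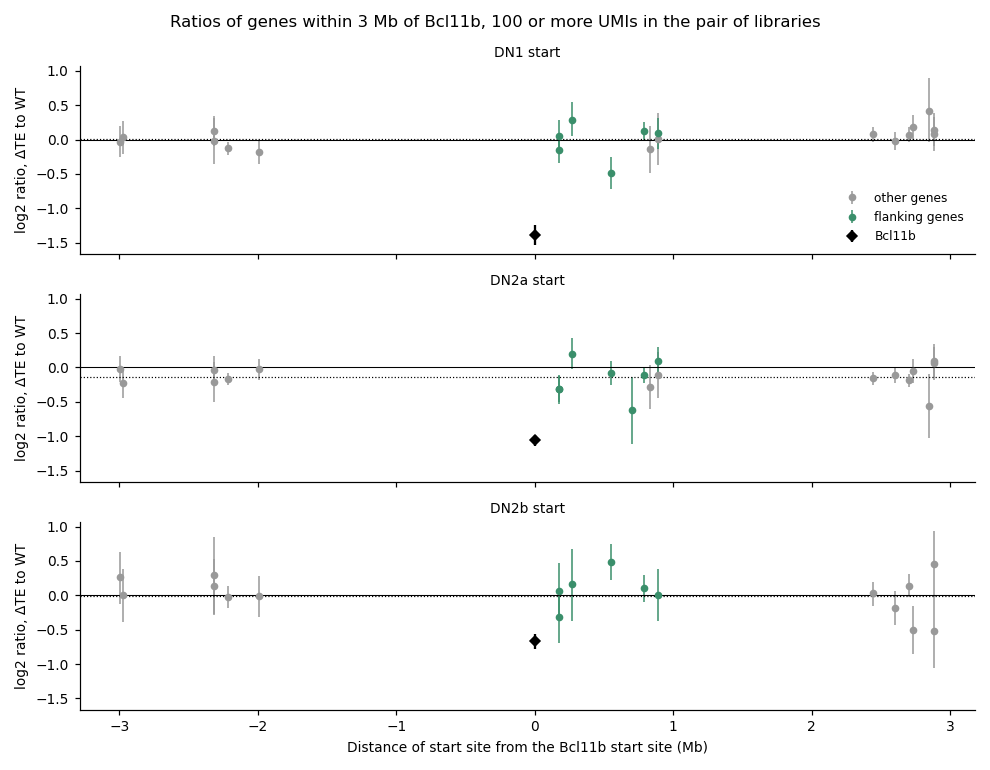
The log2 ratio of ΔTE to WT against the distance of a gene's start site from that of Bcl11b in Mb, for genes within 3 Mb with at least 100 UMIs in the 2 libraries, in 1 panel per starting population. Bars are 95% counting intervals and the dotted line is the median of all genes, and Bcl11b (diamond) is at −1.39, −1.06 and −0.67 while the nearest gene, Setd3, is at −0.15, −0.31 and −0.32.

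Cells were then compared within a library by whether they held a UMI of Bcl11b. Cells with one had more UMIs in all, with medians of 441 to 568 against 375 to 482, and CPM corrects for that total only. For Setd3, Ccnk, Ccdc85c, Evl and Yy1 the cells with a Bcl11b UMI were above the others in 3 of the 6 libraries and below in 3. For Wars they were above in 4 and for Degs2 in 5. The intervals left out 0 in few cases. The share of all genes for which they did is not given here, so these cases are listed without a background. Evl was higher in cells with a Bcl11b UMI from the DN2a start, at 86.4 against 70.2 CPM in WT (log2 ratio 0.30, 0.04 to 0.55) and at 95.5 against 65.6 CPM in ΔTE (0.54, 0.17 to 0.90). Degs2 in ΔTE DN2a was at 21.8 against 6.38 CPM (1.77, 0.86 to 2.63), from 18 and 35 UMIs, and Wars in WT DN2a at 72.5 against 55.6 CPM (0.38, 0.09 to 0.66). Ccdc85c was lower in cells with a Bcl11b UMI in ΔTE DN1, at 16.9 against 53.2 CPM (−1.66, −3.29 to −0.42) from 5 UMIs, and higher in such cells of WT DN2b, at 38.4 against 22.4 CPM (0.77, 0.09 to 1.46). Eml1 was lower in such cells of WT DN2a, at 2.59 against 7.74 CPM (−1.58, −3.26 to −0.27). Setd3, Ccnk and Yy1 had 0 of 6 libraries in which the interval left out 0.

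The cells of no marker group were also summed over the starts. The share of all genes whose interval left out 0 in these sums is not given here, so the neighbours have no background there. The log2 ratios of ΔTE to WT were −0.24 (−0.37, −0.11) for Setd3, −0.15 (−0.30, 0.00) for Ccnk, 0.27 (0.10, 0.44) for Ccdc85c, −0.22 (−0.36, −0.08) for Evl and −0.62 (−1.01, −0.24) for Degs2. Yy1 and Wars were at 0.00 (−0.08, 0.09) and 0.02 (−0.13, 0.16), beside −1.15 (−1.22, −1.09) for Bcl11b. These sums mix the starts, whose numbers of cells differed between genotypes. By start, from DN1 to DN2b, Setd3 was at −0.17, −0.30 and −0.33, Ccdc85c at 0.29, 0.22 and 0.17, Ccnk at 0.00, −0.29 and −0.04, and Degs2 at −0.64, −0.64 and 0.01. Evl was at −0.49, −0.15 and 0.33, so its DN2b value and its summed value had opposite signs. In the feeder-marked cells Setd3 had 48.5 CPM (37.8–61.3) for WT and 19.6 CPM (10.1–34.3) for ΔTE, from 70 and 12 UMIs, with 0 UMIs in those of ΔTE DN2b, a log2 ratio of −1.31 (−2.33, −0.41). The feeder line was the same for both genotypes. Bcl11b in the same cells was at 124 CPM (107–144) for WT and 50.7 CPM (34.4–72) for ΔTE, a log2 ratio of −1.29 (−1.89, −0.74). Progenitor RNA may have been counted in these cells, and its part in the Setd3 ratio was not tested. Without the feeder-marked cells the ratios of Setd3 were −0.14 (−0.34, 0.06), −0.31 (−0.50, −0.13) and −0.31 (−0.68, 0.06) from DN1, DN2a and DN2b, close to those with them.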

How the data were processed

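The authors deposited matrices of UMI counts per gene and cell, 1 library for each of 6 groups, made from sci-RNA-seq3 reads. The submitters' processing notes name mm9, without its role, while 99.6% of the 28048 listed gene IDs were found in GENCODE M21, and positions are from that annotation of GRCm38. Whether counting used strand or intronic reads is not given in the sources used here. Barcodes under 200 genes, over 2000 UMIs or over 30% mitochondrial UMIs were dropped, and no doublet caller was run. No barcode was shared between libraries. UMIs were summed per library and per reverse-transcription well (18 wells) and divided by the total of genes found in at least 15 cells, as CPM. The libraries held between 1715982 and 9041255 UMIs after these filters. Ratios of ΔTE to WT carry exact binomial 95% intervals, which treat UMIs as independent. With 1 library per group no test between groups was run, and genes past 1.2-fold are counted over all genes with at least 100 UMIs in the 2 libraries.

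All 8 neighbours are named whatever their values, along with Bcl11b, genes within 3 Mb, relatives by family, and the 2 genes most like each neighbour that had at least 100 UMIs in every library. The members and lists were chosen with earlier results of these data known. Marker groups were cells with at least 3 stromal UMIs, at least 1 UMI of 8 ILC or NK genes, at least 3 T cell UMIs without Bcl11b or at least 2 myeloid UMIs, taken so that no cell is in more than 1. Alternatives changed the filters on cells and genes, the scaling (TMM of edgeR 4.0.16 in R 4.3.3, among others), the cells and the wells used. Python 3.11.15, numpy 2.4.6, pandas 2.3.3, scipy 1.17.1 and matplotlib 3.10.9 were used, and the ratios and intervals were tested on simulated data.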

Additional observations from a re-analysis of the deposited data

Results flagged for a closer look

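Evl had opposite directions in the DN1 and DN2b starts. Its log2 ratio of ΔTE to WT was −0.48 from the DN1 start, with every ΔTE well below every WT well, and 0.49 from the DN2b start, with every ΔTE well above every WT well. It is listed because the wells of the same contrast moved opposite ways in these starts. The difference between the starts was not tested, since each genotype had 1 library per start and wells are parts of 1 culture.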

How the results depend on the processing

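With a limit of 20% mitochondrial UMIs, the number of the 8 neighbours past 1.2-fold was 1 from DN1 and 7 from DN2b, against 4 and 3 at the limit used. Of those with at least 100 UMIs, 1 of 6 and 1 of 2 passed, beside 22% and 43.1% of all genes. With a limit of 5%, which kept 3624 cells (between 7 and 3308 per library) and gave no DN2b value, it was 7 from DN2a against 4 (3 of 3 with at least 100 UMIs, beside 79.3% of all genes), and the median log2 ratio there was −0.51 against −0.21. With UMIs scaled per cell that median was 0.02. Neighbours with at least 100 UMIs were also counted under further settings, in the order DN1, DN2a and DN2b. With no mitochondrial limit 4 of 8, 3 of 8 and 2 of 6 passed 1.2-fold, beside 16.5%, 42.1% and 28.2% of all genes. Without cells holding any marker UMI 2 of 6, 4 of 6 and 0 of 1 did, beside 22.6%, 34.7% and 37.8%. Directions turned for Ccdc85c from DN1 (−0.20) and Ccnk from DN2a (0.47) at the 5% limit, and for Evl from DN2b without cells holding any marker UMI (−0.67). They turned for Eml1 from DN1 at the 20% limit (0.13), without feeder-marked cells (1.33) and without well 3 of WT DN1 (0.10, with −1.38 without well 1), and from DN2a with no mitochondrial limit (0.02). Signs also turned under some alternatives for Ccnk from DN1 (to −0.15). From DN2a they did for Evl (to 0.85), Yy1 (to 0.12) and Wars (to −0.24). From DN2b they did for Ccnk (to −0.79), Ccdc85c (to −0.34), Degs2 (to −0.23), Yy1 (to −0.17) and Wars (to −0.41). The cause of these changes was not tested. Leaving out single wells gave 3 to 4, 3 to 4 and 2 to 4 neighbours past 1.2-fold from DN1, DN2a and DN2b (1 to 2, 2 to 3 and 1 to 2 of those with at least 100 UMIs), beside 17.9% to 19.8%, 29.6% to 44.3% and 31.4% to 39.2% of all genes, with medians from −0.16 to 0.09, from −0.22 to −0.16 and from −0.00 to 0.13. Leaving out cells with an ILC or NK marker UMI was chosen after seeing the data. No paired analysis was possible because each group had 1 library. Depth limited Eml1 and Degs2 most, with 120 and 285 UMIs in all.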
